A study of Homo sapiens with 26 samples.

Results

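Drug-metabolizing enzyme genes were followed across 26 single cell-derived cell lines (SCDCLs) of pancreatic cancer. The members were the protein-coding genes whose symbols begin with CYP1, CYP2, CYP3, CYP4, UGT1A, UGT2, ALDH, AKR1, GSTA, GSTM, GSTO, GSTP, GSTT, SULT or CES and go on with a member number. This gave 118 of the 41078 genes in the table. The 9 UGT1A genes share most of their exons and were summed into 1 locus, which left 110 units. GSTT1 could not be matched to an identifier and was not analysed here.

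Each SCDCL was grown from a single cell by limiting dilution and sequenced once as poly-A RNA, so a library stands for 1 clone and no clone had a replicate. The labels assign 12 SCDCLs to BxPC3, described there as classical-like, and 14 to Panc-1, described as basal-like. All were cultured in DMEM with high glucose and serum. Every library carries gemcitabine as its treatment, although the protocols describe the drug for viability assays, and no untreated group was labelled.

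BxPC3 is known to lack SMAD4, and Panc-1 to express it. SMAD4 transcripts went against the label in 14 libraries, namely 7 of those labelled Panc-1 and 7 of those labelled BxPC3. The comparison was therefore made between 12 SMAD4-low SCDCLs, of which 5 were labelled BxPC3 and 7 Panc-1, and 14 SMAD4-high SCDCLs, of which 7 carried each label. SMAD4 reached 0.0440 TPM at most in the first set and lay between 28.1 and 52.2 TPM in the second, where TPM is the share of a gene among all transcripts after correction for length. This division comes from the data and not from a label. SMAD4 itself cannot be told apart from any other difference between the sets. VIM, a mesenchymal filament gene, lay at 1.42 to 73.2 TPM in SMAD4-low and at 3047 to 4526 TPM in SMAD4-high SCDCLs, and CDH1, an epithelial adhesion gene, at 90.8 to 198 TPM and 0.338 to 7.74 TPM. Of the ductal keratins, KRT19 exceeded 558 TPM everywhere and was not called, KRT7 was higher in SMAD4-low SCDCLs at 1376 to 3166 TPM against 15.05 to 41.0 TPM (log2 fold change 6.29), and KRT8 (-2.18) and KRT18 (-1.56) were lower. Hepatocyte markers summed to at most 5.20 TPM and acinar markers to at most 0.948 TPM. Of the immune markers, CD68 lay between 5.27 and 141 TPM, and PTPRC and CD3E stayed under 1 TPM. Endothelial markers summed to at most 6.13 TPM and fibroblast markers to at most 39.0 TPM, nearly all of it COL1A1. Libraries held 27035724 to 34945608 estimated counts, at which 3 counts correspond to 0.0858 to 0.111 CPM, the count scaled to the library total.

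Enzymes of these families alter drugs, hormones, lipids and dietary compounds in sequence. In phase I, cytochrome P450s (CYP) oxidize a substrate, aldo-keto reductases (AKR1) and aldehyde dehydrogenases (ALDH) reduce or oxidize carbonyl groups, and carboxylesterases (CES) cleave esters. In phase II, UDP-glucuronosyltransferases (UGT), glutathione S-transferases (GST) and sulfotransferases (SULT) attach a polar group that makes the product easier to excrete. Many of these genes are best known from liver and gut, and ducts of the pancreas express only some of them.

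Some members lie side by side or close together on a chromosome and shared the direction of their change, and the promoters of a few of them with large TPM differences are shown here from RefSeq (GRCh38.p14, 250 bases before to 50 after the annotated start, 5′ to 3′). For AKR1C1 and AKR1C2, both far higher in SMAD4-low SCDCLs, the capitals mark the 245-base run that the pair has in common.
AKR1C1 promoter, chr10:4963165-4963464, plus strand: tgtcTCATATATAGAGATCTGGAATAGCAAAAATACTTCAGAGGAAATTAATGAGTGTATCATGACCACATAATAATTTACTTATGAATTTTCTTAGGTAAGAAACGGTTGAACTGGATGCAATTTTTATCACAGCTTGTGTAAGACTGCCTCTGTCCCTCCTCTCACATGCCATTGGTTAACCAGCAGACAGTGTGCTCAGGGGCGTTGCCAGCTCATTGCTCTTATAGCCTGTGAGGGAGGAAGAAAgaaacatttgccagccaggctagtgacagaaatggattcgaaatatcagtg
AKR1C2 promoter, chr10:5003808-5004107, minus strand: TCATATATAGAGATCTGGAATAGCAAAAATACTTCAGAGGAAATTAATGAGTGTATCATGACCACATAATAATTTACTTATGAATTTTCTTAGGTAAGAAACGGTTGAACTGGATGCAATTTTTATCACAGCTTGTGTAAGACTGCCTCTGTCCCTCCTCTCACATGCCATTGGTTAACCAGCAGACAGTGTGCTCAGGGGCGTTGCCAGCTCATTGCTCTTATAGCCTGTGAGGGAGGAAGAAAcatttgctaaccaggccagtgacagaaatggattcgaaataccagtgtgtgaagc
Over 292 aligned bases the pair was 98.6% identical, whereas the AKR1C1 and AKR1C3 promoters were 80.9% identical over 288 bases. UGT1A6, tested in the fit reported only as part of the UGT1A locus, also had higher TPM in SMAD4-low SCDCLs. Most of that locus was assigned to UGT1A10, whose promoter is not shown. GSTM4 and GSTM3, both lower, lie close together on chromosome 1. GSTM2, also lower, and GSTM1, not tested, lie between them, and GSTM5, not tested, starts between them. In the promoters of UGT1A6, GSTM4 and GSTM3, capitals mark matches to GCGTG, the core bound by AHR with ARNT, on either strand (CACGC on the reverse). In UGT1A6 the second capital run, CAGGTG, is a reverse match to CACCTG, the E-box of ZEB and SNAI factors.
UGT1A6 promoter, chr2:233691452-233691751, plus strand: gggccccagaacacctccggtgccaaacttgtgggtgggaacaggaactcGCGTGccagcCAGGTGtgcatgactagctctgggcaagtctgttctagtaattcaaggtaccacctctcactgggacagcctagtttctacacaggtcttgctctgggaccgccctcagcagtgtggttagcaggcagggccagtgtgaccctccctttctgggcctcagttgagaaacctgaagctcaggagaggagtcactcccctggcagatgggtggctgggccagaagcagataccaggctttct
GSTM4 promoter, chr1:109655849-109656148, plus strand: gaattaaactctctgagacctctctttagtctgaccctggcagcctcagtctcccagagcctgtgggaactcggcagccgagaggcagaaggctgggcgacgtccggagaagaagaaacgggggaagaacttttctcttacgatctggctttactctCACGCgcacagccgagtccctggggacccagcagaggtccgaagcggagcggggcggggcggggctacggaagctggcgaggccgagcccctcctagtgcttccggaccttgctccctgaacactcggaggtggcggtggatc
GSTM3 promoter, chr1:109740989-109741288, minus strand: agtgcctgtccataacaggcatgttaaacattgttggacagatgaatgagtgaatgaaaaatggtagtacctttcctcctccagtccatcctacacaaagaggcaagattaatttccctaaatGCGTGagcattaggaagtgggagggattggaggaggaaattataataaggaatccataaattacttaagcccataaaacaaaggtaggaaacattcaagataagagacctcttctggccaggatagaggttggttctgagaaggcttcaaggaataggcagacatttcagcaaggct
RefSeq promoters were held for 92 of the 118 members. GCGTG occurred in 28.3% of them and in 36.3% of all 27305 promoters, and CACCTG in 23.9% and 20.6%. TGACNNNGC, the core of the antioxidant response element, occurred in 15.2% of member promoters and 13.6% of all promoters, and in none of those printed above. These are letter matches on both strands, and overlaps between motifs were not removed.

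The sum over all members was larger in SMAD4-low than in SMAD4-high SCDCLs. It ran from 1870 to 3554 TPM with a median of 2650 in the first set and from 999 to 1296 TPM with a median of 1085 in the second, so the sets did not overlap. ALDH, AKR1, UGT1A and GSTO transcripts made up most of the sum in SMAD4-low SCDCLs, at medians of 1058, 568, 491 and 373 TPM. In SMAD4-high SCDCLs the same families stood at 343, 171, 0.164 and 208 TPM. The order was reversed for the CYP1, GSTM, GSTP, GSTT and GSTA families, which had higher medians in SMAD4-high SCDCLs. Ranges of the GSTM, GSTT and GSTA sums did not overlap. Those of CYP1 (11.7 to 114 against 12.6 to 181 TPM) and GSTP (20.4 to 42.8 against 33.2 to 62.6 TPM) did. The order was less clearly reversed for CES and SULT, whose medians of 27.2 and 26.2 TPM stood against 35.9 and 27.8 TPM with overlapping ranges.

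**Figure D1:**
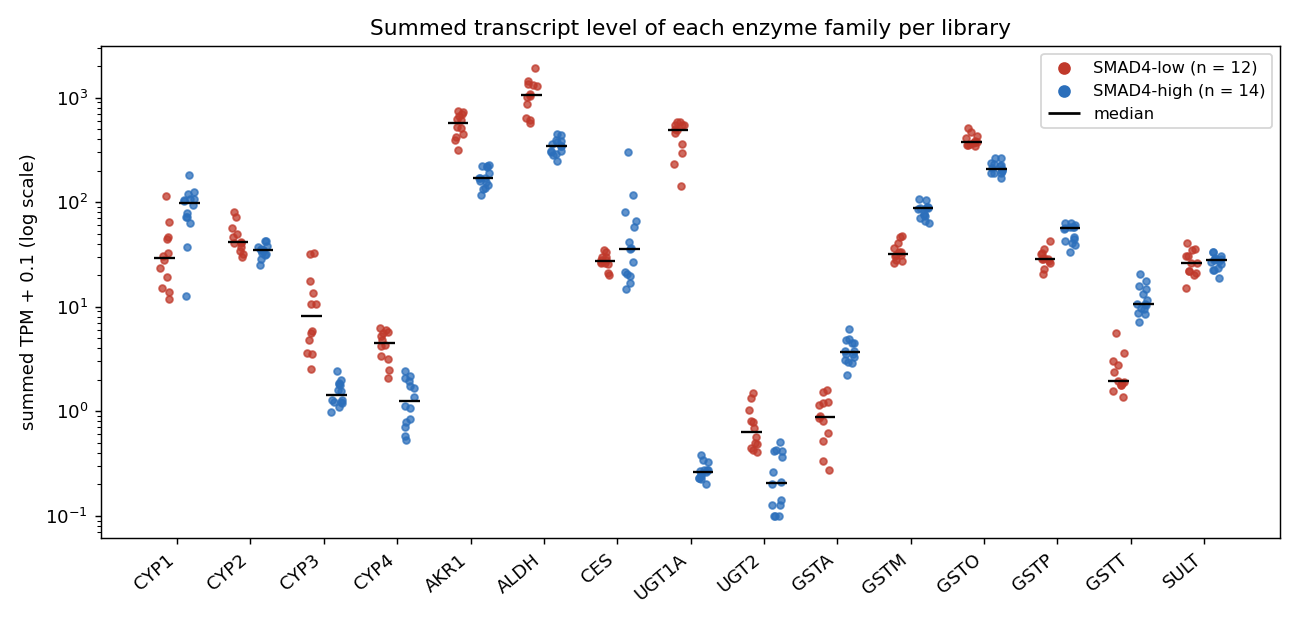
Summed TPM of each enzyme family plus 0.1 on a log axis, with 1 point per library, 12 SMAD4-low SCDCLs in red, 14 SMAD4-high SCDCLs in blue and a black line at the median. UGT1A separates the sets the most, from 142 to 589 TPM against 0.103 to 0.278 TPM before the addition for the locus, while SULT overlaps.

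A member was called expressed in a set when its median reached 1 TPM. By this measure 43 of 110 units were expressed in SMAD4-low and 32 in SMAD4-high SCDCLs, beside 62.4% and 59.8% of all protein-coding genes. Both sets expressed 27 of them, 16 were expressed in SMAD4-low SCDCLs alone and 5 in SMAD4-high SCDCLs alone. Those 5 were ALDH1L2, CES1, GSTA4, SULT2B1 and SULT4A1. A further 13 units stayed under 0.1 TPM in every library. They comprised 6 of the 10 UGT2 genes, GSTA2, GSTA3, GSTA5, CYP2A13, CES5A, SULT1C3 and SULT6B1. No UGT2 gene was expressed in either set.

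To compare the sets, the estimated counts of the whole table were fitted with edgeR (quasi-likelihood), and a gene was called at an adjusted p under 0.05 and a change over 2-fold. Fold changes are given as SMAD4-low minus SMAD4-high on the log2 scale. Of 110 units, 61 passed the filter on low counts, 27 were called higher and 12 lower in SMAD4-low SCDCLs, and 22 were tested and not called. Over all 16005 genes tested, 38.9% were called, 20% higher and 19% lower. The median log2 fold change was 0.89 over the tested members and -0.01 over all tested genes. TPM ranges of the sets did not overlap for 25 members, 20 of them with SMAD4-low above and 5 with SMAD4-high above, where 30.0% of all tested genes did not overlap, 14.6% with SMAD4-low above and 15.4% with SMAD4-high above. Since many genes separate the sets, a call alone does not set a member apart. The p-values test the difference between the sets against the spread among clones of a set. The clones derive from BxPC3 and Panc-1 alone, so the p-values do not extend to SMAD4 status in other lines. In bulk RNA a change in the share of expressing cells and a change per cell cannot be told apart.

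**Figure D2:**
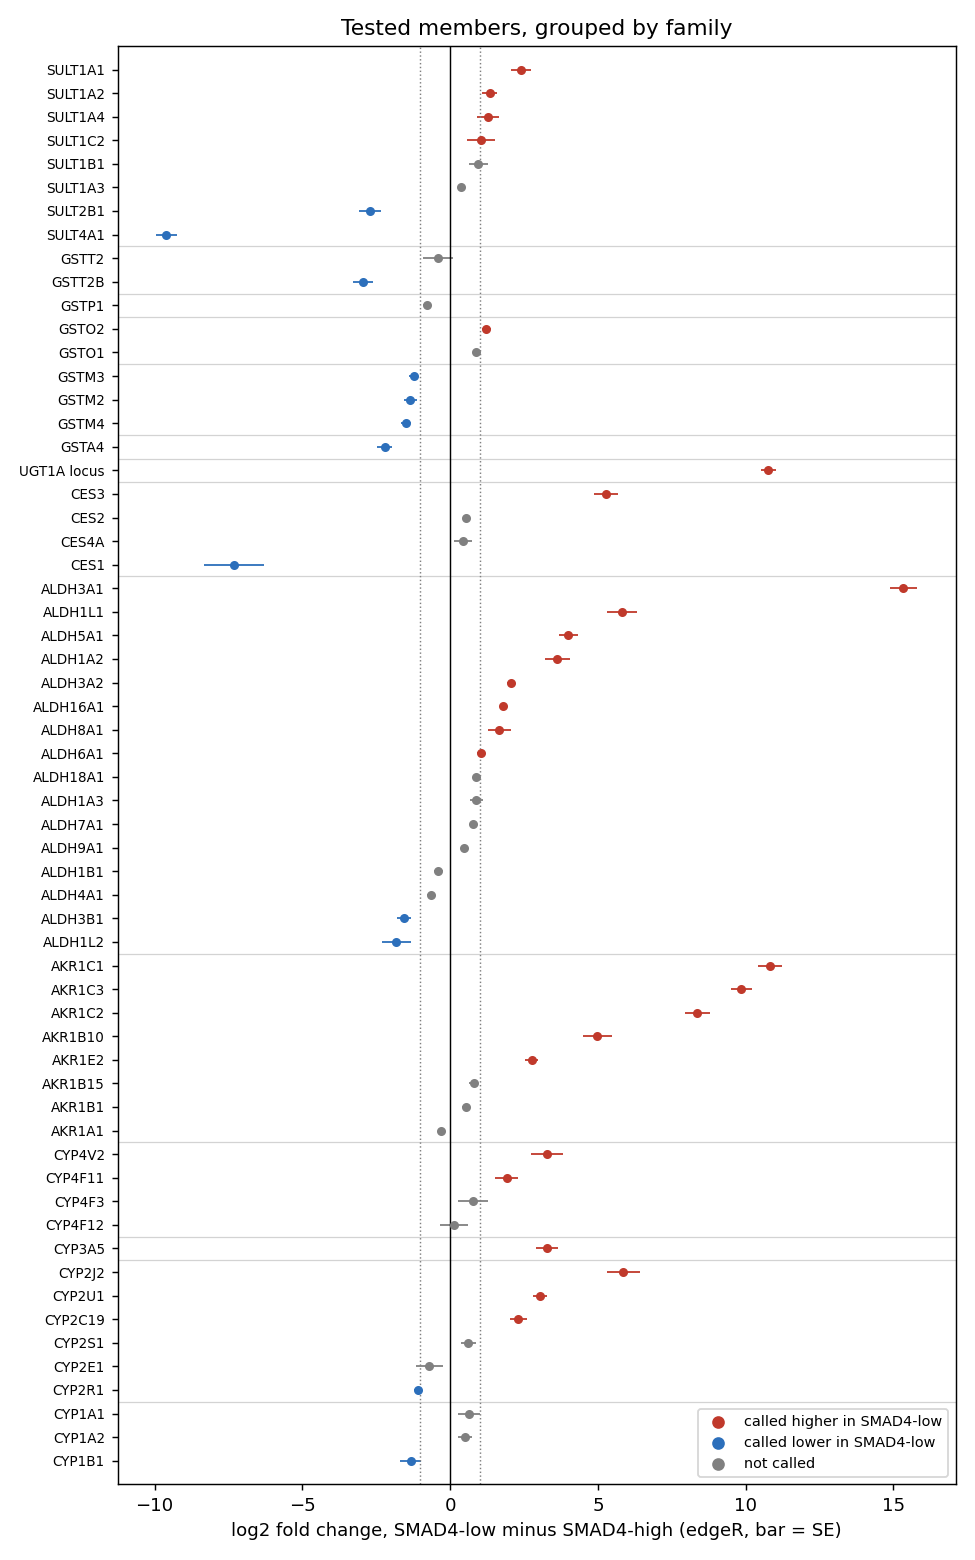
Log2 fold change (SMAD4-low minus SMAD4-high, edgeR) of the tested members with SE bars, grouped by family, with 1 member left out, with dotted lines at -1 and 1; red and blue mark members called higher and lower and grey those not called. AKR1 and ALDH members extend to the right and every tested GSTM and GSTA member lies to the left. For ALDH3A1 and SULT4A1, near 0 in a whole set, the plotted value depends on the prior count of the fit. AKR1C1, AKR1C2 and AKR1C3 held only 44.4, 53.9 and 16.1 estimated counts in all over SMAD4-high SCDCLs, so the size of their change is also uncertain.

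Among phase I enzymes, the aldo-keto reductases had a median log2 fold change of 3.87 over the tested genes. Of 8 tested AKR1 genes, 5 were called higher, none lower and 3 were not called. AKR1C1, which reduces progesterone and other carbonyl compounds, ranged from 62.1 to 252 TPM (median 165) in SMAD4-low SCDCLs and did not exceed 0.338 TPM in SMAD4-high SCDCLs (log2 fold change 10.83, SE 0.41, adjusted p = 3.69e-19, edgeR). AKR1C2, an inactivator of dihydrotestosterone, lay at 31.3 to 215 TPM (median 102) against at most 0.788 TPM (8.37, SE 0.43). AKR1C3, a prostaglandin and androgen synthase, lay at 31.02 to 114 TPM (median 83.1) against at most 0.278 TPM (9.86, SE 0.36). The SMAD4-high set held 16.1 estimated counts of AKR1C3 in all. Its log2 fold change was 11.3 among libraries labelled BxPC3 and 9.06 among those labelled Panc-1. All 12 SMAD4-low clones were above all 14 SMAD4-high clones for each of these neighbouring genes on chromosome 10. AKR1C1 and AKR1C2 share sequence, with only 68.2% and 54.5% of their 31-base words found in no other gene, so the split of reads between them is uncertain. Of AKR1C3's words, 91.7% were its own.

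AKR1B10, a retinal and lipid aldehyde reductase, ranged from 1.58 to 10.4 TPM (median 2.34) in SMAD4-low SCDCLs and up to 0.342 TPM in SMAD4-high SCDCLs (4.99, SE 0.49, adjusted p = 3.60e-10, edgeR). Library 25 stood highest among the SMAD4-low clones. Of the 31-base words of AKR1B10, 68.5% were its own. AKR1E2 lay at 7.91 to 15.3 TPM against 0.304 to 3.07 TPM (2.76, SE 0.21). Members of broad use in metabolism differed less. AKR1B1, the aldose reductase of the polyol pathway, had medians of 154 and 101 TPM (0.55, SE 0.13) and AKR1A1, an aldehyde reductase, 55.5 and 66.8 TPM (-0.30, SE 0.09). Neither these 2 genes nor AKR1B15, at medians of 1.51 and 0.846 TPM, changed by 2-fold.

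**Figure D3:**
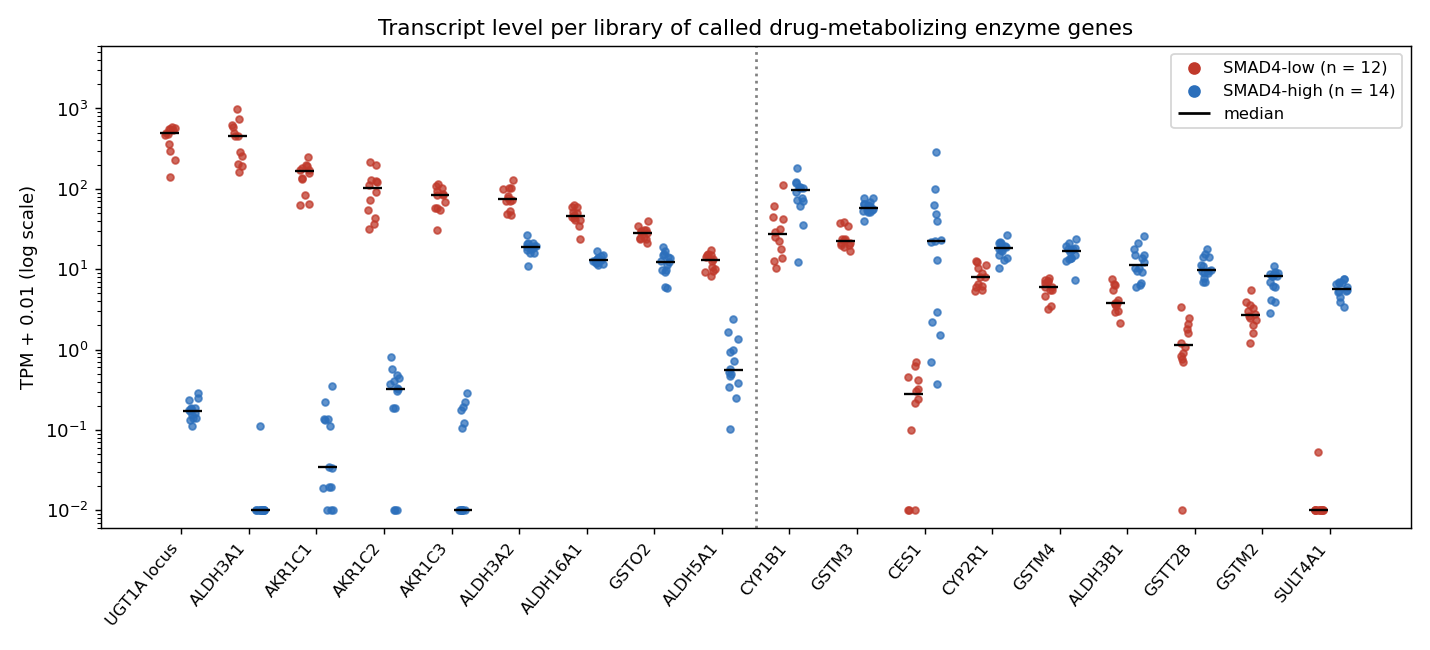
TPM plus 0.01 on a log axis, with 1 point per library, for the 9 called members of highest median in SMAD4-low SCDCLs (left of the dotted line, among those higher there) and the 9 of highest median in SMAD4-high SCDCLs (right, among those lower in SMAD4-low); black lines are medians. The 9 genes on the left do not overlap between sets, whereas on the right only GSTM3, GSTT2B and SULT4A1 do not overlap, and CES1 spans 0.360 to 285 TPM among SMAD4-high clones.

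Aldehyde dehydrogenases included the most abundant member of SMAD4-low SCDCLs by highest level. Of 16 tested ALDH genes, 8 were called higher, 2 lower and 6 were not called. ALDH3A1, which oxidizes aromatic and lipid aldehydes and inactivates oxazaphosphorine drugs, ranged from 161 to 982 TPM (median 451) in SMAD4-low SCDCLs. In SMAD4-high SCDCLs it was at 0 in all libraries but library 15, where it reached 0.101 TPM, and the set held 2.997 estimated counts in all (adjusted p = 3.58e-21, edgeR). ALDH3A2, which oxidizes fatty aldehydes, was present in both sets, at 46.7 to 130 TPM (median 75.1) and 11.1 to 26.8 TPM (median 18.7), without overlap (2.08, SE 0.14). ALDH3B1, a further lipid aldehyde dehydrogenase, went the other way, with medians of 3.82 and 11.3 TPM (-1.55, SE 0.23), with overlapping ranges. The ALDH3 subfamily thus held calls in both directions.

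The folate enzymes ALDH1L1 and ALDH1L2, cytosolic and mitochondrial forms that oxidize formyltetrahydrofolate, also took opposite directions. ALDH1L1 lay at 3.45 to 13.1 TPM (median 7.66) in SMAD4-low and at 0 to 0.777 TPM in SMAD4-high SCDCLs (5.81, SE 0.51, adjusted p = 3.54e-11, edgeR). ALDH1L2 lay at 0.0674 to 1.18 TPM and 0.448 to 10.5 TPM (-1.82, SE 0.50, adjusted p = 0.00190, edgeR), and its ranges overlapped. Library 9 was highest for ALDH1L2 among SMAD4-high clones. Among libraries labelled BxPC3, which exclude library 9, the log2 fold change was -0.98 and ALDH1L2 was not called.

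Retinoic acid synthesis is carried out by the ALDH1A genes. ALDH1A3 was the most abundant of them in both sets, at 113 to 514 TPM (median 283) and 66.0 to 247 TPM (median 151), and its change stayed under 2-fold (0.89, SE 0.22, adjusted p = 0.000689, edgeR). ALDH1A2 rose from a median of 0.224 TPM to 3.46 TPM (3.63, SE 0.42), with no overlap. ALDH1A1, often used as a stem cell marker, was below the filter. It was listed at 0 in all SMAD4-high SCDCLs and lay between 0 and 6.22 TPM in SMAD4-low SCDCLs, highest in library 16. ALDH5A1, which degrades the GABA product succinic semialdehyde, was called higher with medians of 13.03 and 0.541 TPM (3.998, SE 0.33), and so was ALDH16A1 with 45.7 and 13.1 TPM (1.81, SE 0.09), both without overlap. ALDH6A1, of valine breakdown, and ALDH8A1 were called higher at 1.04 and 1.67 on the log2 scale, with overlapping ranges. ALDH7A1, ALDH9A1, ALDH18A1, ALDH1B1 and ALDH4A1, mitochondrial or housekeeping forms of amino acid and aldehyde metabolism, lay between 10.1 and 88.8 TPM in every library and changed by less than 2-fold.

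Cytochrome P450 transcripts were scarcer. Of 15 tested CYP genes, 7 were called higher, 2 lower and 6 were not called. CYP3A5, which oxidizes many drugs and is the main CYP3 form outside the liver, lay at 2.18 to 31.1 TPM (median 7.34) in SMAD4-low and at 0.717 to 1.70 TPM (median 1.14) in SMAD4-high SCDCLs (3.27, SE 0.37, adjusted p = 5.97e-09, edgeR). Its ranges did not overlap. CYP3A4, the chief liver form, did not exceed 0.392 TPM in any library. CYP2J2, an arachidonic acid epoxygenase, ranged from 0.405 to 8.94 TPM against at most 0.197 TPM (5.86, SE 0.57), and CYP2U1, a fatty acid hydroxylase, from 4.89 to 14.2 TPM against 0.452 to 2.33 TPM (3.04, SE 0.23). CYP2C19, a liver enzyme that clears many drugs, was called higher from a low level, with medians of 0.606 TPM in SMAD4-low SCDCLs and 0.133 TPM in SMAD4-high SCDCLs. Of its 31-base words, 69.3% belonged to it alone. The fatty acid hydroxylases CYP4V2 (medians of 1.86 and 0.109 TPM) and CYP4F11 (0.495 and 0.114 TPM) were also higher.

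CYP1B1, which oxidizes estrogens and polycyclic hydrocarbons, was the most abundant CYP gene in both sets and was lower in SMAD4-low SCDCLs. It lay at 10.4 to 112 TPM (median 27.4) and at 12.3 to 180 TPM (median 96.5), with wide overlap (-1.33, SE 0.36, adjusted p = 0.00143, edgeR). CYP1A1 and CYP1A2, which share the AHR pathway of induction with CYP1B1, had medians under 1 TPM in both sets and were not called (0.64, SE 0.38, and 0.51, SE 0.24). CYP2R1, the vitamin D 25-hydroxylase, was lower, at 5.36 to 12.7 TPM against 10.3 to 26.4 TPM (-1.09, SE 0.14). CYP2S1, an epithelial P450, had medians of 15.4 and 14.5 TPM (0.62, SE 0.26) and was not called. CYP2E1, the ethanol-inducible form, did not exceed 1.13 TPM.

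Carboxylesterases diverged. CES1, a liver esterase that activates several ester prodrugs, did not exceed 0.684 TPM in SMAD4-low SCDCLs and ran from 0.360 to 285 TPM (median 22.2) in SMAD4-high SCDCLs (-7.32, SE 1.01, adjusted p = 2.11e-07, edgeR). Of the 14 SMAD4-high clones, 13 were above every SMAD4-low clone. Only 56.9% of the 31-base words of CES1 were its own and 42.8% lay in CES1P1, a pseudogene. CES3 took the opposite direction, at 0.680 to 5.05 TPM against at most 0.232 TPM (5.27, SE 0.40). CES2, which activates irinotecan, was at 16.8 to 24.9 TPM and 12.2 to 18.1 TPM and changed by less than 2-fold (0.55, SE 0.06). CES4A was not called, with medians of 1.81 and 1.80 TPM.

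Among phase II enzymes, the UGT1A locus, whose products glucuronidate bilirubin, phenols and drugs such as SN-38, had the smallest adjusted p of all members. It lay at 142 to 589 TPM (median 491) in SMAD4-low and at 0.103 to 0.278 TPM (median 0.164) in SMAD4-high SCDCLs (10.77, SE 0.25, adjusted p = 3.89e-24, edgeR). Most of it was assigned to UGT1A10, a form of the gut, at 108 to 504 TPM, then to UGT1A6, at 29.2 to 77.0 TPM, and to UGT1A1, the bilirubin form, at 2.93 to 16.01 TPM. The other 6 UGT1A genes had medians between 0 and 1.58 TPM in SMAD4-low SCDCLs. Only 17.3% of the 31-base words of UGT1A10, 57.2% of those of UGT1A6 and 48.2% of those of UGT1A1 were their own. This division is therefore less certain than the sum. By contrast, the 10 UGT2 genes summed to at most 1.40 TPM.

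Among glutathione S-transferases, all 3 tested GSTM genes, the 1 tested GSTA gene and 1 of 2 tested GSTT genes were lower in SMAD4-low SCDCLs, and 1 of 2 GSTO genes was higher. GSTM3, the most abundant GSTM gene, lay at 16.7 to 38.9 TPM (median 22.3) and 39.5 to 77.3 TPM (median 58.5), just without overlap (-1.23, SE 0.15, adjusted p = 1.83e-08, edgeR). GSTM4 had medians of 6.08 and 16.9 TPM (-1.49, SE 0.16) and GSTM2 of 2.67 and 8.13 TPM (-1.34, SE 0.22), both with overlap. Among libraries labelled BxPC3, GSTM2 changed by -0.82 and was not called. GSTA4, which conjugates 4-hydroxynonenal, lay at 0.172 to 1.48 TPM and 2.11 to 5.95 TPM (-2.21, SE 0.25). GSTT2B lay at 0 to 3.38 TPM and 6.84 to 17.9 TPM (-2.95, SE 0.34), but only 5.62% of its 31-base words were absent from other genes, and GSTT2, its near copy, was not called (-0.40, SE 0.50). GSTO1, of the class that reduces dehydroascorbate and arsenicals, was the most abundant GST at 312 to 491 TPM (median 343) and 159 to 257 TPM (median 195). Its ranges did not overlap, yet its change of 0.89 (SE 0.10) was under 2-fold. GSTO2 was called higher at medians of 28.4 and 12.5 TPM (1.23, SE 0.15). GSTP1, the most studied GST of tumors, had medians of 28.6 and 56.4 TPM (-0.79, SE 0.11) and was not called.

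Sulfotransferases had 4 members called higher and 2 lower of 8 tested. SULT4A1, a brain form without a settled substrate, was lower. It lay at 3.41 to 7.61 TPM (median 5.72) in SMAD4-high SCDCLs and reached 0.0437 TPM at most in SMAD4-low SCDCLs, where the set held 1.78 estimated counts in all (adjusted p = 2.00e-19, edgeR). SULT2B1, which sulfates cholesterol, was lower at 0.119 to 1.21 TPM against 1.53 to 13.02 TPM (-2.70, SE 0.37), with library 17 highest. SULT1A1, the main phenol sulfotransferase, had medians of 2.14 and 0.450 TPM (2.40, SE 0.33). SULT1A2, SULT1A4 and SULT1C2 were called higher with medians under 1 TPM in both sets and overlapping ranges. Only 67.2% of the 31-base words of SULT1A1 and 54.8% of those of SULT1A2 were their own. SULT1A3, which sulfates dopamine, was the most abundant SULT at 11.5 to 28.2 TPM and 9.96 to 20.9 TPM (0.38, SE 0.13) and was not called. SULT1A3 and SULT1A4 are near copies, with 98.1% of the words of SULT1A4 found in SULT1A3, and their values are uncertain.

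The direction of these differences was also examined within each label. Of the 39 called members, 36 were called among the libraries labelled BxPC3 and 37 among those labelled Panc-1. The 39 came from the fit on all libraries, which include these, so this is not a separate test. The members not called again were ALDH1L2, GSTM2 and SULT1A4 (0.41) under the first label and ALDH6A1 (0.98) and SULT1C2 (0.76) under the second. Under BxPC3, 28 members were higher and 10 lower of 63 tested, beside 39.2% of all genes called. Under Panc-1 they were 27 and 13 of 61, beside 38.5%. By the labels themselves, Panc-1 against BxPC3, no member was called by edgeR or DESeq2. That fit did not include the set. Differences between the sets within each label counted as spread, so label differences in such genes could have been missed. At an unadjusted p under 0.05 there was 1 member by edgeR, ALDH1A3 (0.71, SE 0.25, adjusted p = 1.00), and 2 by DESeq2, and 0.0% of all tested genes were called by edgeR. The interaction of set and label gave no call by either tool, with 3 members at an unadjusted p under 0.05 by edgeR and 4 by DESeq2. AKR1C3 had the smallest of these (adjusted p = 0.591, edgeR). Labels within SMAD4-low SCDCLs gave no call, with 8 members at an unadjusted p under 0.05 by edgeR and 11 by DESeq2, and labels within SMAD4-high SCDCLs gave none, with 2 members by each tool. In edgeR the smallest adjusted p was 0.404 among SMAD4-low SCDCLs, for SULT1A1, and 0.985 among SMAD4-high SCDCLs, for ALDH1A3. In DESeq2 the values for the same genes were 0.0648 and 0.765. In edgeR, 61 members were tested between the labels, 65 for the interaction, 63 within SMAD4-low and 44 within SMAD4-high SCDCLs. Over all genes, in the same order, an unadjusted p under 0.05 was reached by 365 of 16005, 1391 of 17451, 1827 of 16119 and 691 of 15161. DESeq2 tested 100, 100, 96 and 93 members. Its counts over all genes were 676 of 29044, 1618 of 29033, 2231 of 26911 and 1003 of 26116.

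Clones of a set also differed from each other. A member was called variable when its median reached 1 TPM and its highest level was at least 4 times its lowest after adding 0.1 TPM. Of the 43 members expressed in SMAD4-low SCDCLs, 17 were variable, and of the 32 expressed in SMAD4-high SCDCLs, 7 were variable. Over all expressed genes the shares were 16% and 18.3%. CES4A and CYP1B1 were variable in both sets. GSTT2B and AKR1C2, whose reads are shared with near copies, are among the 17.

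Library 21 had the lowest TPM among the SMAD4-low clones for ALDH3A1 (161), ALDH1A3 (113) and the UGT1A locus (142). Libraries 4 and 26 followed, with 192 and 206 TPM of ALDH3A1, 137 and 134 TPM of ALDH1A3, and 230 and 295 TPM of the UGT1A locus. The same 3 clones were among the 4 highest for CYP3A5, at 16.1, 30.7 and 12.7 TPM, together with library 24 at 31.1 TPM. They carry both labels, and they were picked after their values were seen. Library 5 was highest for ALDH3A1 (982), ALDH1A3 (514) and CYP1B1 (112). CYP2S1 stood out in libraries 26 and 4, at 50.1 and 44.2 TPM, where the lowest clone had 7.90 TPM.

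**Figure D4:**
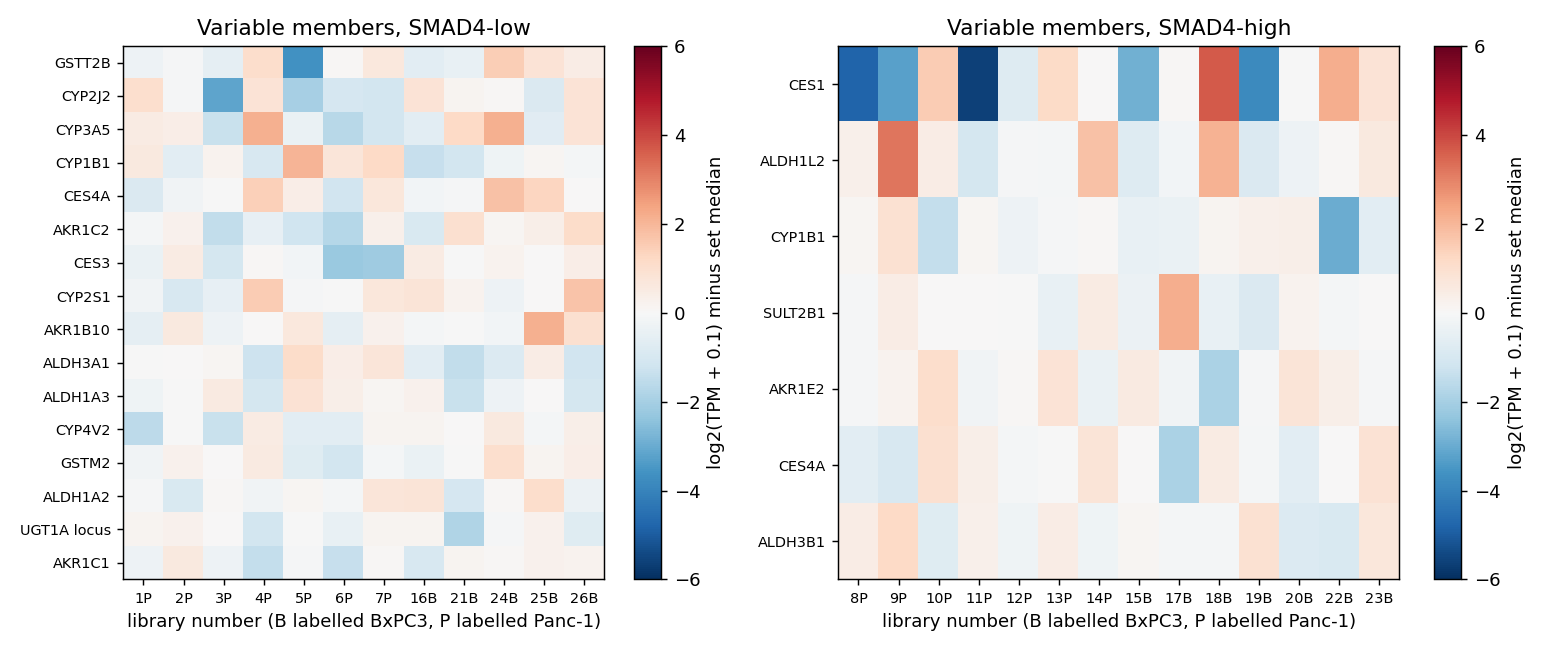
Log2(TPM + 0.1) of each variable member minus its median in the set, as colour, with rows ordered by the ratio of the highest to the lowest level and columns by library number; the letter B marks the label BxPC3 and P Panc-1. The rows on the left are SMAD4-low clones, with 1 member left out, where libraries 4, 21 and 26 are blue for ALDH3A1, ALDH1A3 and the UGT1A locus and red for CYP3A5, and the 7 rows on the right are SMAD4-high clones, led by CES1.

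Of the 5 gene pairs chosen for correlation among clones, 4 could be computed in SMAD4-low SCDCLs and none in SMAD4-high SCDCLs, where at least 1 gene of each pair had a median under 1 TPM. On log2(TPM + 1) over 12 clones, ALDH1A3 and ALDH3A1 correlated with Pearson's r of 0.866 (permutation p = 0.000180, adjusted over 4 pairs 0.000360) and Spearman's rho of 0.832 (permutation p = 0.00137, adjusted 0.00274), and without libraries 21 and 26 the r was 0.772. AKR1C1 and AKR1C3 correlated with an r of 0.863 (permutation p = 0.000110, adjusted 0.000360) and a rho of 0.860 (permutation p = 0.000660, adjusted 0.00264), and without libraries 4 and 6 the r was 0.817. AKR1C1 and AKR1C2, which share reads, had an r of 0.651 (permutation p = 0.0217, adjusted 0.0289) and a rho of 0.755 (permutation p = 0.00610, adjusted 0.00813). Without the same libraries the r was 0.606 (permutation p = 0.0574, over fewer clones). AKR1C1 and AKR1B10 had an r of 0.508 (permutation p = 0.0882, adjusted 0.0882) and a rho of 0.643 (permutation p = 0.0273, adjusted 0.0273).

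Among SMAD4-high clones CES1 was the most variable. Library 18 held 285 TPM, libraries 22 and 10 held 99.8 and 63.6 TPM, and libraries 8 and 11 held 0.699 and 0.360 TPM. CYP1B1 was lowest in library 22 (12.3 TPM) and highest in library 9 (180 TPM). ALDH1L2 (10.5 TPM) and ALDH3B1 were also highest in library 9, and AKR1E2 was lowest in library 18 (0.304 TPM).

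Enzymes need cofactors, and their genes are controlled by sensors of foreign compounds. Of 14 regulator genes, 10 were tested, 3 were higher and 1 lower in SMAD4-low SCDCLs, and 6 were not called, a share of calls near the 38.9% over all tested genes. RXRA, the common partner of nuclear receptors, had medians of 78.5 and 12.5 TPM (2.48, SE 0.12), TIPARP, an AHR target that represses AHR, 59.7 and 24.2 TPM (1.45, SE 0.18), and CEBPB 150 and 65.2 TPM (1.14, SE 0.13). PPARG was lower, at 10.2 and 31.2 TPM (-1.62, SE 0.25). NFE2L2, which drives antioxidant response genes, had medians of 109 and 108 TPM (-0.04, SE 0.07), and its inhibitor KEAP1 had 60.6 and 52.5 TPM (0.17, SE 0.08). AHR itself had medians of 25.7 and 17.8 TPM (0.55, SE 0.15) and was not called. The liver factor HNF4A and the xenobiotic receptors NR1I2 and NR1I3 were below the filter, all under 1 TPM.

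Of 25 cofactor and partner genes, 22 were tested, 6 were higher and 4 lower, and 12 were not called, again beside 38.9% called over all tested genes. The microsomal glutathione transferases MGST1 and MGST2 had medians of 342 and 137 TPM in SMAD4-low SCDCLs and 4.53 and 17.3 TPM in SMAD4-high SCDCLs (5.96, SE 0.40, and 3.08, SE 0.18). GSR, which regenerates glutathione, was higher (1.42, SE 0.09), as were EPHX2, FMO5 and NAT1. UGDH, which makes the UDP-glucuronic acid that UGT enzymes use, was lower where the UGT1A locus was higher, with medians of 33.2 and 106 TPM (-1.74, SE 0.17). PAPSS2, which makes the sulfate donor, was also lower (-1.56, SE 0.35), and so were EPHX1 and CYB5A. POR, the electron donor of microsomal P450s, had medians of 71.7 and 145 TPM (-0.98, SE 0.12), just under the 2-fold limit. NQO1, an antioxidant response gene, had medians of 298 and 186 TPM (0.72, SE 0.14).

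**Figure D5:**
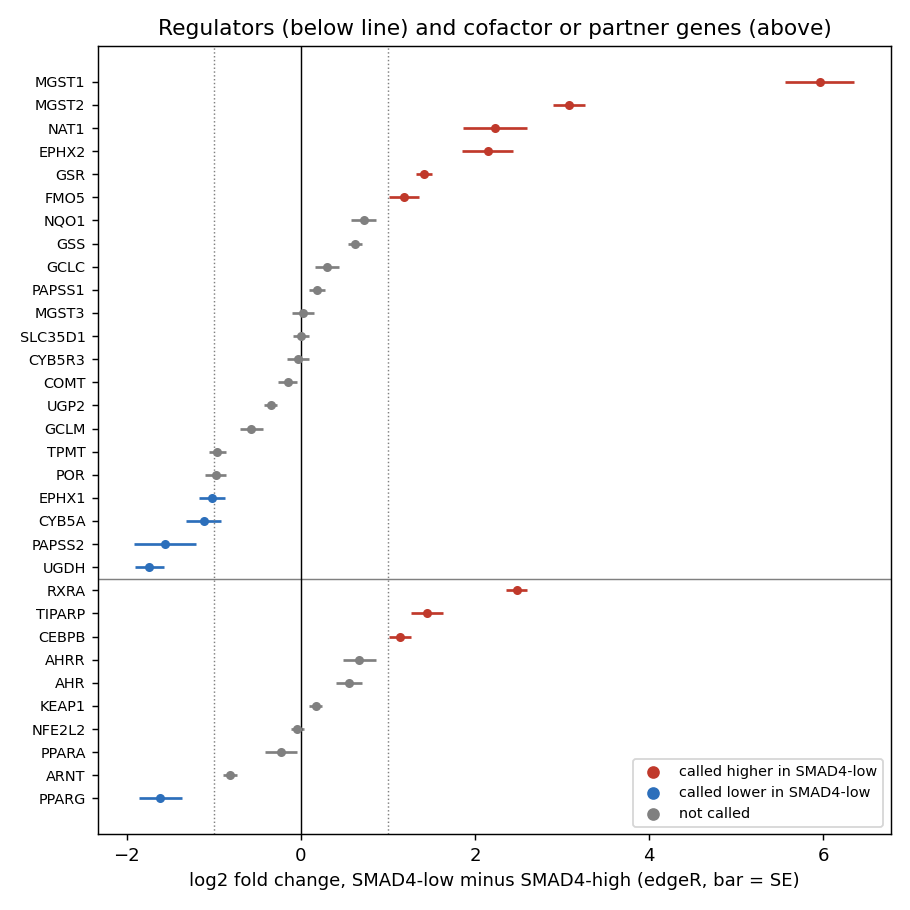
Log2 fold change (SMAD4-low minus SMAD4-high, edgeR) with SE bars of the 10 tested regulators below the grey line and the 22 tested cofactor and partner genes above it, coloured by call, with dotted lines at -1 and 1. MGST1 (5.96) and MGST2 (3.08) lie farthest right and UGDH (-1.74) farthest left.

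Members under the filter had medians under 1 TPM in both sets, although ALDH1A1 reached 6.22 TPM and CYP4X1 2.26 TPM in library 16. Of the 49 units not tested, CYP2C18 (median of 0.409 TPM), CYP4X1 (0.610) and CYP3A7 (0.265) were detected in SMAD4-low SCDCLs, while their medians in SMAD4-high SCDCLs were 0 for CYP2C18 and CYP3A7 and 0.0255 TPM for CYP4X1. GSTM1 had medians of 0.472 and 0 TPM, and GSTA1 reached 0.116 TPM at most. At these levels a difference between the sets was not reported as a change.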

How the data were processed

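Messenger RNA of 26 SCDCLs was sequenced by the authors after poly-A selection and strand-specific library preparation. The deposited TPM and estimated counts (expected counts of kallisto 0.46.1, GRCh38, summed per gene and scaled by transcript length) were used as given by the authors. A further 806 per-sample columns were not used. Levels are TPM.

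Estimated counts were rounded, filtered with filterByExpr, scaled with TMM and tested over all genes with edgeR 4.0.16 (robust quasi-likelihood, Benjamini-Hochberg) in R 4.3.3. DESeq2 1.42.0 and limma 3.58.1 were alternatives, with the code tested on simulated data. Symbols and gene types came from GENCODE 44. Correlations used 100000 permutations, and tables were handled in Python 3.11.15. The closest pair of libraries in a set differed by a mean chi-square of 44.9 per gene, so none was counted as a duplicate. The labels give no batch. Clones were harvested as each reached confluency, so harvest times differed, and they were not analysed here.

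Named members were those with a median of at least 5 TPM in a set, the 10 largest calls per direction and variable members, and all other called members were added. The members and lists were chosen with earlier results of these data known. Protein sequences were not analysed here, and response to gemcitabine was not used. A member, a regulator and a motif that entered the counts are not reported here.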

Additional observations from a re-analysis of the deposited data

How the results depend on the processing

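Members called higher in SMAD4-low SCDCLs numbered 27 in the fit reported and 18 to 40 over the alternatives, and those called lower 12 and 10 to 15. The lowest count of higher members came from a filter of 1 CPM in 12 libraries, with 47 units tested and 36.9% of all genes called. The highest came from no filter, with 100 units tested and 35.2% of all genes called. These settings change how many genes are tested, and the fit reported tested 61 units. DESeq2 called 38 higher and 12 lower of 100 units, beside 30.3% of all genes. Its median log2 fold change over all 29044 genes it tested was 0.13. Leaving out single libraries gave 25 to 28 and 12. All 53 named members kept their direction and their side of the threshold under DESeq2, the label as a covariate and scaling by library total, 50 of 53 among libraries labelled BxPC3 and 51 of 53 among those labelled Panc-1. Some of the 53 were named for their large calls in these same libraries, so this is not a separate test. Expressed members numbered 38 to 52 in SMAD4-low and 27 to 38 in SMAD4-high SCDCLs over the limits tried. The count of variable members in SMAD4-high SCDCLs moved from 7 to 4 with 1 TPM added and to 13 with a 3-fold limit, and lay between 5 and 7 with single libraries left out. In SMAD4-low SCDCLs it lay between 13 and 21 over these settings, and between 15 and 18 with single libraries left out.

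No paired analysis was possible because the labelled groups share no replicate number. Each clone was sequenced once, so differences between clones include differences between libraries. Levels near 3 counts cannot be ordered, and near-identical genes (UGT1A, SULT1A3 and SULT1A4, GSTT2 and GSTT2B) are also limited by read assignment. The floor of 3 counts covers counting error only. Each SE is the absolute log2 fold change over the square root of its edgeR F statistic. It therefore restates the test and is no direct measure of the spread among clones. Where a set held few counts, the SE does not show how uncertain the size of the change is.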
